A study of Mus musculus with 4 samples.

Results

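In all, 10 genes of steroid hormone synthesis were examined: Scarb1, Star, Cyp11a1, Fdx1, Hsd3b1, Cyp19a1, Hsd17b1, Hsd17b7, Akr1c18 and Srd5a1. A chromatin loop was assigned to a gene when an anchor lay within 10 kb of its annotated body, or when the loop spanned under 500 kb and enclosed the gene. By this rule 84 called loops belonged to the 10 genes, 59 through an anchor and 25 by enclosing the gene. They formed 33 distinct loops of 12920 in the whole data set, and 9 of the 10 genes had at least 1. The loops came from Micro-C, a chromosome conformation assay that fragments chromatin with micrococcal nuclease, in granulosa cells from punctured ovaries of 21-day-old mice. Every mouse was primed with equine chorionic gonadotropin (eCG, here PMSG) at 5 IU, given as 46 h or as 44 h before in different labels. The PMSG group is labelled 0 h after human chorionic gonadotropin (hCG), and the hCG group was collected 6 h after 5 IU of hCG, an agonist of the luteinizing hormone (LH) receptor. Each group had 2 libraries, with 1 deposited loop list per library.

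Granulosa cells make estradiol before ovulation and turn to progesterone after the LH surge. Scarb1 takes up cholesterol from high-density lipoprotein and Star moves it to the inner mitochondrial membrane. There Cyp11a1, fed with electrons by the ferredoxin Fdx1, cleaves its side chain to give pregnenolone, which Hsd3b enzymes convert to progesterone. Cyp19a1, the aromatase, and Hsd17b1 complete estradiol synthesis, and Hsd17b7 acts both on estrone and in cholesterol synthesis. Akr1c18 inactivates progesterone, and Srd5a1 reduces the steroid A ring. In loop calling, an anchor is 1 of the 2 genome bins (5, 10 or 25 kb) joined by the loop, and strength is the observed contact count of that bin pair over the count expected from its local surroundings. A loop does not measure transcription, and the files used here hold no expression values.

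The PMSG lists held 8305 and 6533 loops, the hCG lists 7664 and 7935, and contacts at called bin pairs summed to between 272470 and 393852 per library. At loops shared by all libraries, the locally expected count of the other PMSG library was 0.582 of that of PMSG replicate 1, and those of hCG replicates 1 and 2 were 0.573 and 0.724 of it. Nothing in the labels ties a library to its own mice, and p-values here measure only the spread between libraries, which may be technical. Loops at 7 granulosa marker genes, all of which had at least 1, numbered 2.30 to 2.53 per 1000 in the PMSG lists and 2.35 to 2.52 in the hCG lists.

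The first comparison asked whether the 10 genes were joined by as many loops before and after hCG. Of the 33 distinct loops, 15 (45.5%) were called in all 4 libraries (common), against 29.9% of all distinct loops, and each of the 9 looped genes had at least 1 of these. Over all protein-coding genes, 68% had a loop by the same rule, and of those 53.7% were at a common loop. The 9 of 9 is described beside that share without a test, and the share was not matched for loop number. By total calls among genes with a loop, Hsd17b1 stood at percentile 97.4, Cyp11a1 and Akr1c18 at 96.4 and Scarb1 at 92.6. Star and Cyp19a1 stood at 86.7, Hsd17b7 at 67.8, Fdx1 at 58.9 and Srd5a1 at 48.4. A gene with more calls has more occasions to be at a common loop. Hsd17b1, Akr1c18 and Hsd17b7 had fewer loops in both hCG libraries than in both PMSG libraries, and Fdx1 had more. The Fdx1 count depends on the 10 kb limit, since both PMSG libraries called its common loop with an anchor beyond that limit. Among the 14718 genes with a loop, 5.86% had fewer and 7.62% had more by this measure. These shares include genes with a single call, which cannot differ in this way, so they are not matched to the members either.

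In numbers, the 10 genes had 26 and 21 loops before hCG and 18 and 19 after it, a mean of 23.5 ± 3.54 against 18.5 ± 0.707 (SD, n = 2). Per 1000 loops of each list, these were 3.13 and 3.21 against 2.35 and 2.39. The groups did not overlap. A two-sided exact permutation test gave p = 0.333, the smallest that this design allows. The gap was mainly in loops that enclosed a gene, at 9 and 7 in PMSG and 3 and 6 in hCG. Anchor loops overlapped between the groups, at 17 and 14 against 15 and 13 (exact permutation test, p = 0.667). Among loops whose 4 deposited false discovery rates (FDR) were all at most 0.01, the numbers were 18 and 13 against 14 and 18, so the direction of the count did not hold among loops at this stricter level. This step removed 8 of 26 and 8 of 21 of the PMSG loops and 4 of 18 and 1 of 19 of the hCG loops, whereas over all loops it removed 17.2% and 13.6% in PMSG and 18.0% and 18.9% in hCG. Per 1000 loops, markers of endothelial cells ran the same way, at 1.08 and 1.07 in PMSG and 0.783 and 0.882 in hCG. Their raw numbers, 9 and 7 in PMSG and 6 and 7 in hCG, met at 7. Of these 6 marker genes, 5 had a loop and Tek had none. Their part in the result was not tested.

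**Figure D1:**
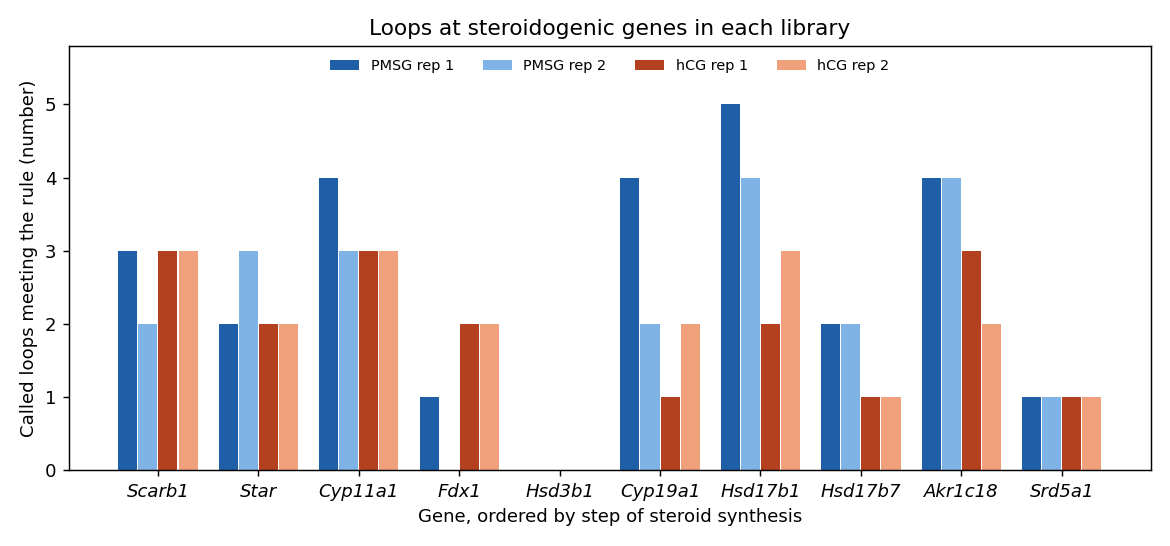
Number of called loops (vertical axis) assigned to each of the 10 genes (horizontal axis), with 1 bar per library and no bar where the number was 0. Hsd17b1, Akr1c18 and Hsd17b7 have lower bars in both hCG libraries, Fdx1 has higher ones, and Hsd3b1 has none.

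A distinct loop was named gained when both hCG lists and neither PMSG list held it, and lost when the reverse held. Only Fdx1 was at a gained loop, and Akr1c18 and Hsd17b1 were each at a lost loop. Of all distinct loops, 5.05% were gained and 3.8% lost, and of all genes with a loop, 9.8% and 7.94% were at such loops, beside 1 and 2 of the 9 steroidogenic genes, numbers too small to set apart from the background. A further 12 distinct loops were called in a single library, 7 and 1 of them in PMSG replicates 1 and 2 and 3 and 1 in hCG replicates 1 and 2. A loop missing from a list is one that did not pass the caller, and its contact count was not used here. Leaving out PMSG replicates 1 and 2 and then hCG replicates 1 and 2, each in turn, gave 2, 1, 2 and 3 gained loops and 4, 9, 3 and 3 lost loops, because 1 group then rested on a single list. Of the anchor loops, 19 had their anchor 5 to 10 kb from the gene body, near the limit of the rule. The median span of the assigned loops was 188 and 175 kb in PMSG and 160 and 165 kb in hCG, beside 175 and 195 kb against 150 and 160 kb over all loops.

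**Figure D2:**
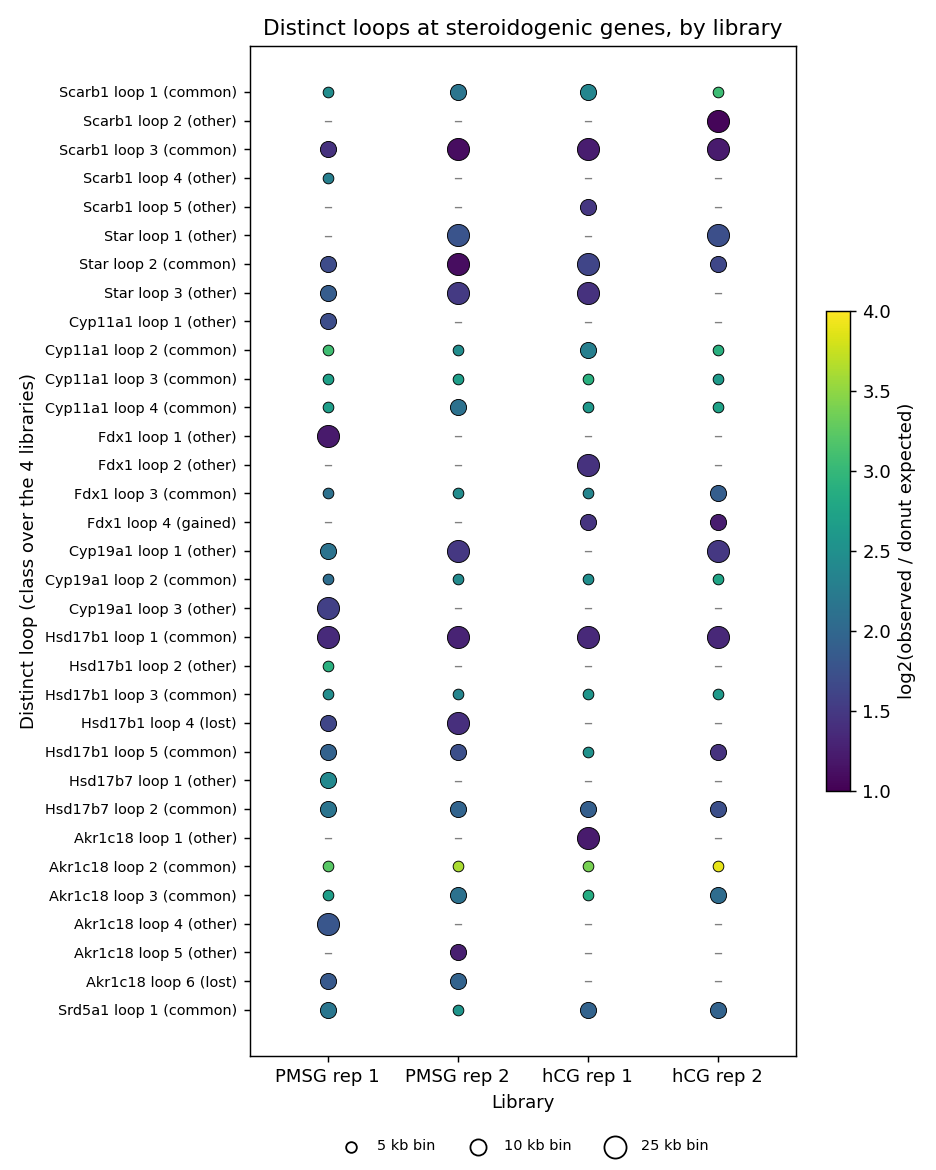
The 33 distinct loops (rows, numbered along the chromosome within each gene) in the 4 libraries (columns), with point size for the bin size and colour for log2 of observed over locally expected contacts. A dash marks a loop not called, and where a list held several calls of a loop the one with the highest ratio is drawn, including calls whose anchor lay beyond 10 kb of the gene. Rows with 4 points are the 15 common loops, and ratios from different bin sizes are not comparable.

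At the entry of cholesterol, Scarb1 and Star each had at least 1 common loop. Scarb1 (chromosome 5, 125277087 to 125341094, mm10) is the lipoprotein receptor gene. Its lower-coordinate flank met a site 350 to 370 kb away, at 124900001 to 124905000 in PMSG replicate 1, with no protein-coding gene within 10 kb of that site. The contacts were 21 against 3.82 expected and 23 against 5.11 in PMSG, and 31 against 5.96 and 18 against 2.17 in hCG. In 5 kb bins the ratio was 5.50 in PMSG replicate 1 and 8.31 in hCG replicate 2. In 10 kb bins it was 4.50 in PMSG replicate 2 and 5.20 in hCG replicate 1. Enrichment over the surroundings is itself a condition of being called. A loop between 125280001 to 125290000 and 125330001 to 125340000, with both anchors inside Scarb1, was called in hCG replicate 1 alone, with 36 contacts against 13.0 expected.

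Star (chromosome 8, 25808474 to 25815982) encodes the protein that controls cholesterol transfer into mitochondria. Its common loop reached 170 to 225 kb to the region of Fnta, Pomk or Hgsnat, with 37, 63, 112 and 29 contacts in PMSG replicates 1 and 2 and hCG replicates 1 and 2, and ratios of 3.22, 2.14, 3.06 and 3.11. The lower ratio of PMSG replicate 2 came from a 25 kb bin, in which hCG replicate 1 had 3.06. The anchor at Star lay 8.47 kb from the gene in 3 libraries and over it, at 25800001 to 25810000, in hCG replicate 2. A longer loop of 350 to 360 kb from Star to Thap1, a zinc-finger gene, was called in both PMSG libraries and in hCG replicate 1. Its ratio was 3.65 in a 10 kb bin in PMSG replicate 1. In 25 kb bins it was 2.84 in PMSG replicate 2 and 2.69 in hCG replicate 1. Star shares these anchors with Lsm1 and Ash2l or Bag4, so the loops cannot be given to Star alone. A loop of 425 kb that enclosed Star ended at the same Thap1 bin. In 25 kb bins it had 59 contacts against 17.2 expected in PMSG replicate 2 and 81 against 24.6 in hCG replicate 2.

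At side-chain cleavage, most loops of Cyp11a1 were held in both states. Of its 4 distinct loops, 3 were common and all 13 calls were anchor loops. The reference table gives Cyp11a1 (chromosome 9, 57998024 to 58027031) 2 start sites, and the upstream one, at 57998024, was covered by an anchor in all 4 libraries, whereas no anchor came closer than 14.95 kb to the start at 58014952. The 250 bases before the upstream start are shown because this is where the loops land (GRCm38.p6, plus strand, chr9:57997774-57998023, RefSeq).

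Cyp11a1 upstream start: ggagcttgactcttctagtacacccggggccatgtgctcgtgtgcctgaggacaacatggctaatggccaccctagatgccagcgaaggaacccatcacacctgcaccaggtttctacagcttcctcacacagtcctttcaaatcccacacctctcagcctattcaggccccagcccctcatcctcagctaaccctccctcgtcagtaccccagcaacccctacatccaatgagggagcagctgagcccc

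From that anchor the longer common loop reached to a site, more than 100 kb away, at 57860001 to 57870000 with no protein-coding gene within 10 kb. Its contacts were 34 against 4.03 expected and 17 against 3.08 in PMSG, and 44 against 9.03 and 22 against 2.94 in hCG, the third in a 10 kb bin. The ratios overlapped between the groups, at 8.44 and 5.51 against 4.87 and 7.49. The shorter common loop joined the 5 kb anchor at or next to the same start with 57935001 to 57940000, near Sema7a, a semaphorin gene, and Ubl7. It held 60 and 31 contacts in PMSG and 33 and 34 in hCG, at ratios of 6.46 and 6.37 against 7.48 and 6.17, again overlapping. On the other side of the gene, an anchor 2.97 to 7.97 kb past its end met Islr2, and in PMSG also Pml, over 165 to 170 kb. There the ratios were 6.36 and 4.34 in PMSG and 6.05 and 6.64 in hCG, from 28, 30, 13 and 20 contacts. The value of 4.34 came from a 10 kb bin and the others from 5 kb bins. One further loop of 230 kb, to Clk3 and Edc3, was called in PMSG replicate 1 alone.

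At Fdx1 (chromosome 9, 51943023 to 51963602, minus strand), the near anchor of 1 common loop lay closer to the gene in hCG than in PMSG. On the other side of the gene, an anchor at 51900001 to 51925000, 18.0 kb away, was the same in every library. The common loop that differed joined the region upstream of the Fdx1 start to Zc3h12c and, in 3 libraries, Rdx, the radixin gene. In PMSG its anchor near Fdx1 was at 51990001 to 51995000 and 51985001 to 51990000, 26.4 and 21.4 kb from the gene. In hCG it was at 51965001 to 51970000 and 51970001 to 51980000, 1.40 and 6.40 kb from the gene, so the anchors of the groups did not overlap. The calls of PMSG replicate 1 and hCG replicate 1 lay more than 20 kb apart here and were joined only through the other calls. Whether these calls are a single loop with a displaced anchor or separate loops was not tested. In 125 of 3859 common loops (3.24%), an anchor lay at least 10 kb apart between the groups. Fdx1 was 1 of 15 among the steroidogenic genes. This measure was chosen after the positions were seen. The contacts of the loop were 23 against 5.33 expected and 17 against 3.11 in PMSG, and 17 against 3.29 and 53 against 14.3 in hCG, the last in a 10 kb bin. Ratios of the 3 calls in 5 kb bins, at 4.31, 5.47 and 5.17, showed no separation of the groups.

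The gained loop at Fdx1 rested on less. Both hCG libraries called a loop of 50 kb from 51990001 to 52000000 to 52040001 to 52050000, near Rdx, with 42 and 41 contacts against 15.4 and 17.7 expected, but this lies 26.4 kb from Fdx1. Only hCG replicate 2 added a call within the 10 kb rule, from 51970001 to 51980000 to 52050001 to 52060000, with 46 contacts against 19.5 expected. In 25 kb bins, hCG replicate 1 had a loop of 300 kb from an anchor over the Fdx1 start (51950001 to 51975000) with 60 contacts against 22.2 expected. Both PMSG libraries had a loop of the same length starting 1 bin further, at 51975001 to 52000000 and 11.4 kb outside the gene, with 88 against 24.6 and 56 against 15.4. The PMSG pair counts as lost only because its bins lie more than 20 kb from those of the hCG call and no other call linked them. The 250 bases before the Fdx1 start (GRCm38.p6, minus strand, chr9:51963603-51963852, RefSeq) are printed as the promoter beside the common loop's anchors in hCG.

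Fdx1 start: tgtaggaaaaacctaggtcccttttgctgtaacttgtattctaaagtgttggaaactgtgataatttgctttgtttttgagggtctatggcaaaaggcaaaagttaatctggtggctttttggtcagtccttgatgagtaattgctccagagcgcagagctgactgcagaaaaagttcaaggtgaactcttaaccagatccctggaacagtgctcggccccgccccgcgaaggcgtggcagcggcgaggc

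Hsd3b1 (chromosome 3, 98842356 to 98859794), which encodes a 3β-hydroxysteroid dehydrogenase, had no loop in any library. The nearest anchor lay 15.2 kb away in PMSG replicate 1, 35.2 kb in PMSG replicate 2 and 50.2 kb in both hCG libraries. The anchor in PMSG replicate 1 belonged to a loop of over 1 Mb with 34 contacts, 9.38 expected, at 25 kb resolution, and no loop of any length enclosed the gene. Its neighbours in the family, Hsd3b2 and Hsd3b6, had no loop by the rule either. Of all protein-coding genes, 14718 of 21631 had one.

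**Figure D3:**
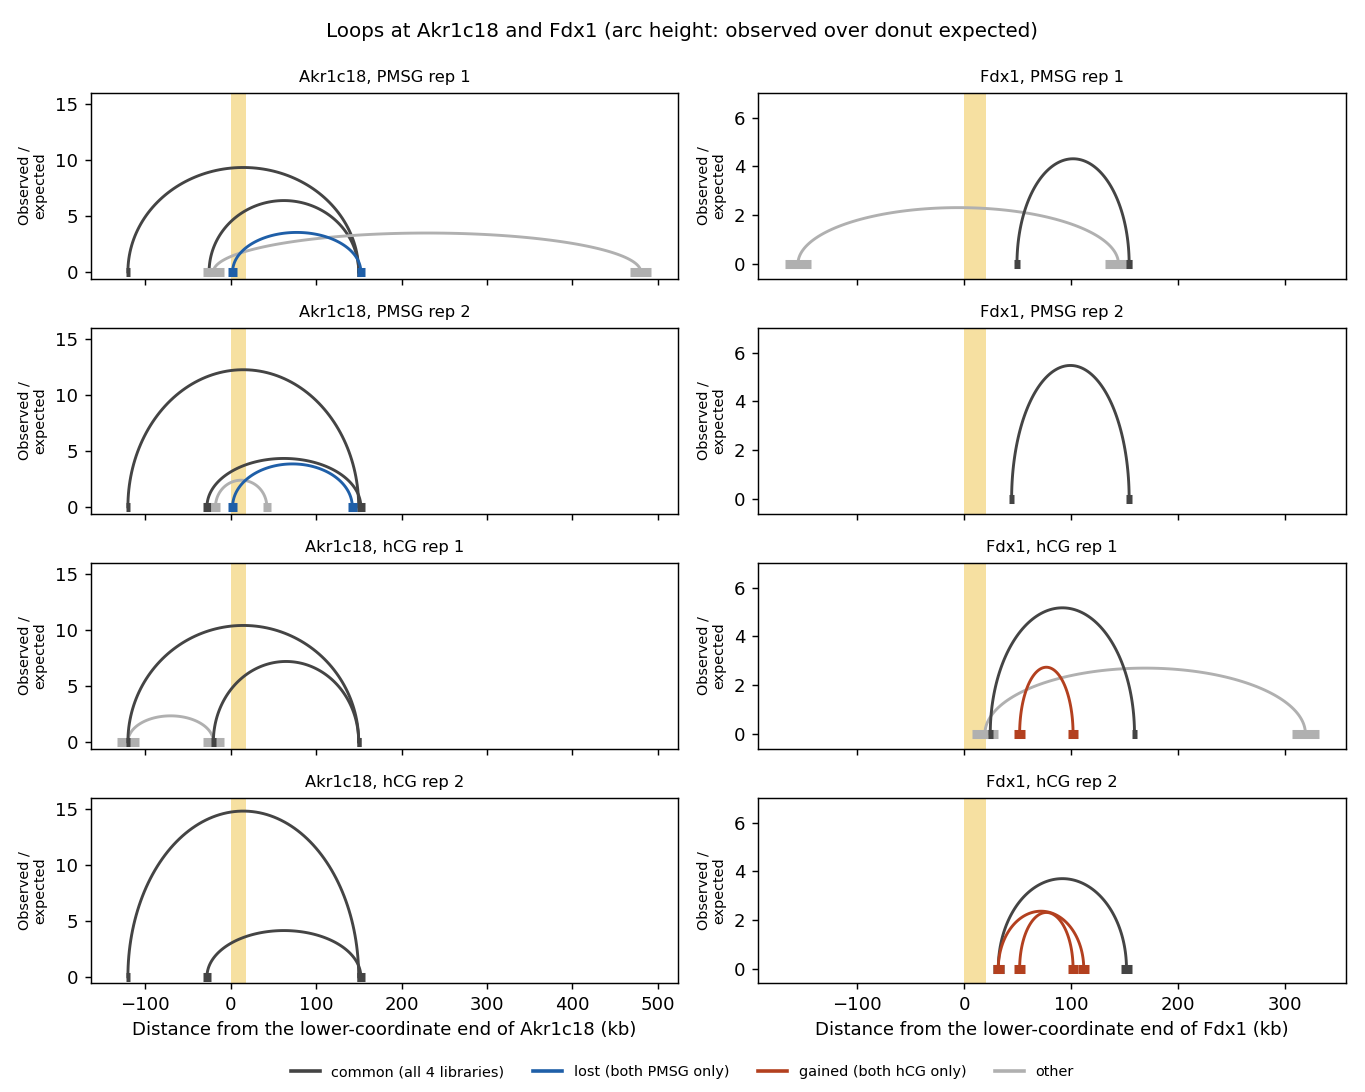
Loops at Akr1c18 (left) and Fdx1 (right) in each library, with anchors as bars on the baseline, arc height for observed over locally expected contacts, and the gene body in yellow at distance 0 from its lower-coordinate end. The blue lost loop of Akr1c18 appears in both PMSG panels, at ratios of 3.53 and 3.84, and the dark common anchor beside Fdx1 lies 1.40 and 6.40 kb from the gene in hCG against 26.4 and 21.4 kb in PMSG.

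Among the estrogen genes, Cyp19a1 kept 1 common loop and was at no gained or lost loop. Cyp19a1 (chromosome 9, 54165937 to 54268164, minus strand) encodes aromatase. The common loop ran from inside the gene, at 54175001 to 54185000 over the 4 libraries in 5 kb bins, to Gldn, the gliomedin gene, over 140 to 155 kb. Its contacts were 29 against 6.93 expected and 17 against 3.16 in PMSG, and 20 against 3.599 and 22 against 3.26 in hCG. The ratios were 4.19 and 5.38 in PMSG and 5.56 and 6.74 in hCG, without overlap. Both hCG ratios lay above both PMSG ratios in this way at 27.4% of all loops fitted. The fit across all loops gave a log2 change of 0.42 ± 0.28 (SE; edgeR quasi-likelihood test, adjusted p = 0.849). The reference table gives 3 starts, and the most downstream one, at 54193743, was covered by anchors in PMSG replicate 1 alone. Those anchors belonged to a 10 kb call of the same loop at 54190001 to 54200000, with 62 contacts against 23.8 expected, and to a loop of 475 kb to Acsbg1, an acyl-CoA synthetase gene, with 52 against 17.6. In the other libraries the nearest anchor lay 8.74 kb (PMSG replicate 2 and hCG replicate 1) or 13.7 kb (hCG replicate 2) from that start, which is shown here (GRCm38.p6, minus strand, chr9:54193744-54193993, RefSeq).

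Cyp19a1 most downstream start: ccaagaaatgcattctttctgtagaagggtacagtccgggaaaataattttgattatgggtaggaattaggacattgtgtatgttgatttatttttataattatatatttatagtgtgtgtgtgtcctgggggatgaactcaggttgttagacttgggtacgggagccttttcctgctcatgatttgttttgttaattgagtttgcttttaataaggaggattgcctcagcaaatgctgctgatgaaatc

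A loop enclosing Cyp19a1, from 53975001 to 54000000 up to Gldn, was called in 3 libraries and not in hCG replicate 1. It had 23 contacts against 5.23 expected at 10 kb resolution in PMSG replicate 1. In 25 kb bins it had 56 against 20.03 in PMSG replicate 2 and 53 against 18.9 in hCG replicate 2, so where bins matched the ratios were 2.80 in both states.

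Hsd17b1 (chromosome 11, 101077968 to 101081188), the enzyme that makes estradiol from estrone, lies in a gene-dense region and had 5 and 4 loops in PMSG against 2 and 3 in hCG. Its anchors also covered Naglu, Atp6v0a1, Coasy or Mlx, so none belongs to Hsd17b1 alone. The lost loop enclosed the gene, from Cavin1, a caveolar coat gene, to Cntnap1 and Ezh1 over 200 kb (100980001 to 100990000 with 101180001 to 101190000 in PMSG replicate 1). It had 29 contacts, 9.40 expected, at 10 kb resolution and 52 against 19.7 at 25 kb resolution in PMSG replicate 2. Shorter loops within that interval were held in both states. Cavin1 met the Hsd17b1 flank in all 4 libraries over 75 to 85 kb, with 42, 16, 21 and 24 contacts and ratios of 5.48 and 5.16 in PMSG and 5.94 and 6.09 in hCG. In hCG replicate 1 that anchor lay 18.0 kb from the gene, outside the rule, which lowered its count by 1. From the gene to Plekhh3, Ccr10 and Cntnap1, the other part was called in all libraries, at ratios of 3.82, 3.30 and 2.69 at 10 kb resolution in PMSG replicates 1 and 2 and hCG replicate 2 and 5.76 at 5 kb resolution in hCG replicate 1.

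A further common loop joined the Hsd17b1 flank to Stat3 and Stat5a, transcription factors of cytokine and prolactin signalling, over 175 kb. The same pair of 25 kb bins was called in all 4 libraries, 100875001 to 100900000 with 101050001 to 101075000. Contacts were 210 and 55 in PMSG and 92 and 115 in hCG against 82.2, 22.5, 36.2 and 45.6 expected. Raw contacts thus differed between libraries while the ratio stayed at 2.55, 2.45, 2.54 and 2.52, and its log2 change was 0.01 ± 0.12 (SE; edgeR, adjusted p = 0.999).

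Hsd17b7 (chromosome 1, 169949535 to 169969242, minus strand) had 2 loops in each PMSG library and 1 in each hCG library, but 1 distinct loop was common to all. It joined the 3′ side of the gene or its flank near Ccdc190 to Uap1, an enzyme of nucleotide sugar synthesis, over 190 to 210 kb. In 10 kb bins it had 39 and 26 contacts in PMSG and 26 and 28 in hCG, at ratios of 4.44 and 3.75 against 3.71 and 3.31. The hCG values lay below the PMSG values, as at 7.1% of all loops fitted, with a log2 change of -0.24 ± 0.25 (SE; edgeR, adjusted p = 0.901). The difference in number came partly from a repeat call of this loop in PMSG replicate 2, with 25 contacts against 6.46 expected. The rest was a loop of 460 kb in PMSG replicate 1 alone. It joined Rgs5 to Uap1 and enclosed Hsd17b7 without an anchor at it.

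In progesterone breakdown, Akr1c18 was at a lost loop to Akr1c12, and 2 loops that enclose it were common. Akr1c18 (chromosome 13, 4132615 to 4150646, minus strand) encodes the 20α-hydroxysteroid dehydrogenase that inactivates progesterone, and it lies in a cluster of Akr1c genes. The lost loop ran from 4130001 to 4140000, the 3′ part of the gene, to 4280001 to 4290000 beside Akr1c12 in PMSG replicate 1 and to 4270001 to 4280000 in PMSG replicate 2. Contacts were 38 against 10.8 expected and 42 against 10.9, at ratios of 3.53 and 3.84, and neither hCG list held the loop. The largest of its 4 FDR values was 0.0171 in PMSG replicate 1, so it left the class at the 0.01 level, and it also left it with matching within 50 kb and when anchors had to overlap.

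Around it, a loop of 270 kb enclosed the gene at the same pair of 5 kb bins in all 4 libraries, 4010001 to 4015000 with 4280001 to 4285000. Among loops of the 10 genes called in 5 kb bins, this one had the highest ratios. Its contacts were 19 against 2.03 expected and 27 against 2.20 in PMSG, and 17 against 1.63 and 28 against 1.89 in hCG. At ratios of 9.35 and 12.3 against 10.4 and 14.8 the groups overlapped (log2 change 0.23 ± 0.29, SE; edgeR, adjusted p = 0.910). Another common loop, of 170 to 180 kb, began 17.6 to 22.6 kb beyond the 3′ end of the gene and ended at the same Akr1c12 anchor. In 5 kb bins its ratio was 6.39 in PMSG replicate 1 and 7.197 in hCG replicate 1, and in 10 kb bins 4.33 in PMSG replicate 2 and 4.14 in hCG replicate 2. Both states thus held the enclosing loops, and the loop anchored inside the gene was called in PMSG alone. Akr1c18 loops called in 1 library were a loop of 500 kb to Akr1e1 in PMSG replicate 1, one of 60 kb in PMSG replicate 2 and one of 100 kb in hCG replicate 1. Srd5a1 (chromosome 13, 69573449 to 69611485), the steroid 5α-reductase gene, was enclosed by 1 loop of 100 kb in each library. It had 48, 26 and 32 contacts at 10 kb resolution in PMSG replicate 1 and hCG replicates 1 and 2, at ratios of 4.52, 3.84 and 3.85, and 12 against 2.02 expected at 5 kb resolution in PMSG replicate 2.

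The lost loop of Akr1c18 landed 10.6 kb from its start. The 250 bases before that start (GRCm38.p6, minus strand, chr13:4150647-4150896, RefSeq) are given with a match to the searched string TTGCNNCAA in capitals. The match is on the strand opposite to the printed one, so the capitals show its reverse complement. It was the only match to that string among the promoters searched for these genes.

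Akr1c18 start: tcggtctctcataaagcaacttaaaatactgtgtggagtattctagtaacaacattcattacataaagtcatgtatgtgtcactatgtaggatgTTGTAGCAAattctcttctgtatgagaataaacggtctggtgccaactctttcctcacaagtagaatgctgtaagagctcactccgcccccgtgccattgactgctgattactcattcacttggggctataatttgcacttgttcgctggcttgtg

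The promoter table held 10 starts of 7 of the 10 genes; Scarb1, Star and Hsd17b1 were not among them. Motifs were sought on both strands in the 250 bases before each start. The string TTGCNNCAA, searched for C/EBP, was found 156 bases before the Akr1c18 start and in 1.74% of all 32851 promoters. It has a fixed gap, so C/EBP sites of other spacing could not match it. Its match is therefore not read as a C/EBP site, and its absence from the other windows is not read as a lack of such sites. The GATA form AGATAA was found 134 bases before the Hsd3b1 start and in 9.99% of promoters, and the RUNX form TGTGGT 226 bases before the middle Cyp19a1 start and in 14.0%. The forms CAAGGNCA for NR5A1 and NR5A2 and TGACGNCA for CREB had no match in the 10 windows and occurred in 5.53% and 2.75% of promoters. These matches describe letters in a short window and not bound sites.

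Loop strength was then compared between the states over all loops called in the same bin size in every library. A loop missing from any list was left out beforehand, so gained and lost loops could not be tested. None of the loops at steroidogenic genes that entered was called as changed. Of 1366 loops fitted, 6 were at these genes: 2 of Hsd17b1 and 1 each of Cyp11a1, Cyp19a1, Hsd17b7 and Akr1c18. No loop of Scarb1, Star, Fdx1 or Srd5a1 entered. With edgeR's quasi-likelihood test on observed counts and the local expectation as offset, 0 of 1366 loops passed an adjusted p of 0.05 (0% in each direction), and 92 had an unadjusted p under 0.05, none of them among the 6. DESeq2 and limma also called 0. The log2 changes at the 6 loops ran from -0.24 at Hsd17b7 to 0.42 at Cyp19a1, and the smallest adjusted p was 0.849.

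Ratios were slightly higher in hCG over the whole set, with a median log2 change of 0.15 over 1366 loops and 0.12 over the 6; the difference between these medians was not tested. Without PMSG replicate 1 the median was 0.00 over all loops and 0.07 over the 6, and without PMSG replicate 2 it was 0.26 and 0.10. Both hCG ratios lay above both PMSG ratios at the Cyp19a1 loop and the Hsd17b1 loop to Cavin1, and below them at the Hsd17b7 loop. Over all loops fitted, 27.4% lay above and 7.1% below in this way. The sign of these small changes depended on the local background: 5 of 6 were above 0 with the donut expectation, 2 of 6 with the horizontal and 3 of 6 with the vertical one, where the median was -0.03 and 0.02 over the 6 and 0.13 and 0.10 over all loops.

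**Figure D4:**
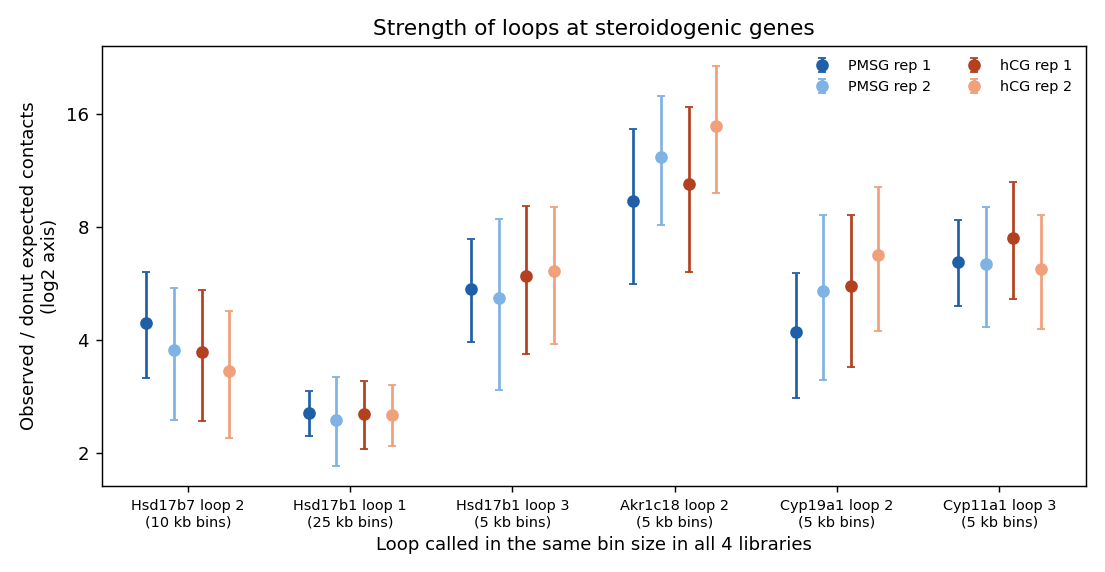
Observed over locally expected contacts (log2 axis) for the 6 loops at steroidogenic genes called in the same bin size in every library, 1 point per library, with exact Poisson 95% intervals that cover counting error only. Ratios from different bin sizes are not comparable, and within each loop the intervals of the 4 libraries overlap.

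**Figure D5:**
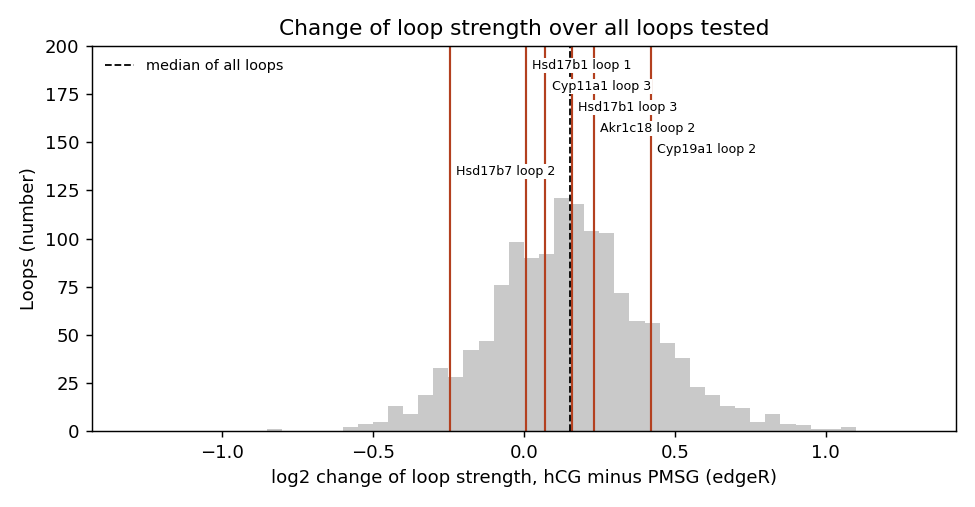
Distribution of the log2 change in loop strength, hCG minus PMSG, over all 1366 loops fitted (horizontal axis, with the number of loops on the vertical axis), with the 6 loops at steroidogenic genes as red lines and the median of all loops, 0.15, dashed. The red lines lie between -0.24 and 0.42, inside the bulk of the distribution.

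Other genes of the steroid pathway gave a wider view. Of 40 listed genes 38 were found in the gene table, 26 had a loop by the rule and 16 of these were at a common loop, beside 68% of all genes with a loop and 53.7% of those at a common one. At gained loops were 2, Stard5 and Npc1, and at lost loops 2, Stard5 and Cyp1b1, beside 9.8% and 7.94% of all genes with a loop. Npc1, which exports cholesterol from lysosomes, had a gained loop with both anchors within 10 kb of the gene, of 50 and 60 kb, with 38 contacts against 12.7 expected at 10 kb resolution in hCG replicate 1 and 17 against 3.08 at 5 kb resolution in hCG replicate 2. Stard5, a sterol-binding relative of Star, was enclosed by a lost loop of 250 kb from Tmc3 to Cfap161, with 70 and 48 contacts against 30.3 and 20.02 expected. A gained loop from the Tmc3 side to Il16, of 100 and 110 kb with 20 and 30 contacts against 5.33 and 7.77, enclosed it after hCG. Cyp1b1, a cytochrome P450 that hydroxylates estradiol, had a lost loop of 325 kb to Hnrnpll, with 87 and 57 contacts against 39.8 and 22.0 expected in 25 kb bins.

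The remaining genes showed little difference in number. Cyp17a1, the androgen-forming enzyme of theca cells, had 3 loops in each PMSG library and 4 and 3 in hCG. Por, the reductase that feeds microsomal P450 enzymes, had 3 and 2 in both groups, and Fdxr, the reductase upstream of Fdx1, had 2 and 1 against 2 and 2. Cyb5b had more loops in both hCG libraries, at 4 and 3 against 2 and 2, and no other gene of the list did, while none had fewer in both, beside 7.62% and 5.86% of all genes with a loop. Loops at the whole list numbered 43 and 26 in PMSG and 45 and 39 in hCG, or 5.18 and 3.98 against 5.87 and 4.91 per 1000, which overlapped. No loop was called at Tspo, Stard4, Lipe, Cyp11b1, Cyp11b2, Hsd17b2, Akr1c20, Akr1c21 or Sult1e1, or at Hsd3b2 and Hsd3b6 named above.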

How the data were processed

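Loop lists of 4 Micro-C libraries, 2 per group, were used. Libraries came from a Dovetail Micro-C kit, per the labels' protocols, with 2 to 3 technical replicates per sample that are not separate here. The submitters' processing notes name BWA, Juicer and mm10, and the file headers juicer_tools 1.22.01. The eCG treatment is stated as 46 h in the characteristics and 44 h in the treatment protocol. Per the file headers, the deposited lists give the observed contact count of each loop, the expected contact signal from 4 neighbourhoods and 4 FDR q-values; the deposited score (pixels merged per loop) was not used. Loops were called per library, so depth can affect presence.

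Loops of any list were joined into distinct loops when both anchor midpoints lay within 20 kb. Genes came from a RefSeq table on GRCm38.p6, the assembly of mm10 (21631 protein-coding genes). Strength used the finest bin size called in all 4 libraries and the call nearest the mean midpoint, in edgeR 4.0.16 with the donut expectation as offset and Benjamini-Hochberg adjustment at 0.05 over 1366 loops; DESeq2 1.42.0 and limma 3.58.1 (on log2 of the ratio of the deposited observed to expected values) were alternatives. R 4.3.3, Python 3.11.15, pandas 2.3.3 and scipy 1.17.1 were used. Partner genes were protein-coding genes within 10 kb of an anchor, up to 3 per anchor, nearest first; from the other pathway list, genes at gained or lost loops were named by rule, and Cyp17a1, Por, Fdxr, Cyb5b and the genes without loops were named after their values were seen. Genes, lists and rules were chosen with earlier results of these data known. Some loops and genes are not reported here. Intervals cover counting error only, since contacts may include PCR copies.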

Additional observations from a re-analysis of the deposited data

How the results depend on the processing

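The difference in loop number at the 10 genes, -5 loops and -0.801 per 1000, was negative under each alternative run except one: with all 4 FDR values at most 0.01 it was 0.5 loops and 0.0517 per 1000. Leaving out 1 library gave -7.5 to -2.5 loops and -0.843 to -0.759 per 1000. Gained loops (1) became 0 with anchors required to overlap the gene body, with anchors within 5 kb of it, with lists of equal length, when midpoints could lie 50 kb apart and when anchors had to overlap, and 1 to 3 without 1 library. Lost loops (2) became 3 with anchors within 25 kb of the gene body and 3 with lists of equal length. They became 1 with anchor loops only, 0 at FDR 0.01, 1 when midpoints could lie 50 kb apart and 1 when anchors had to overlap. Without 1 library they numbered 3 to 9. Of 13 alternatives, Fdx1 stayed at a gained loop in 8, Akr1c18 at a lost loop in 10 and Hsd17b1 at a lost loop in 11; without enclosing loops the last cannot be assigned.

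Calls of loop strength (0 of 1366) numbered 3, 1 and 2 with the bottom left, horizontal and vertical expectation and 0 to 8 without 1 library, none at the 10 genes. With these 3 expectations the median log2 change of the 6 loops moved from 0.12 to 0.22, -0.032 and 0.0155, and it was 0.0720 to 0.0990 without 1 library; the cause was not tested. The groups share replicate numbers, and deviations of same-numbered libraries correlated at -0.0128 over 1366 loops, so the numbers were not taken as pairs. With the replicate number as a block, 0 loops were called, 58 had an unadjusted p under 0.05, and the median of the 6 was 0.13.

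A loop absent from a list did not pass the caller at the depth of that library, and its absence was not tested against depth.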

Other observations

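Loops at markers of other ovarian cell types were counted by the same rule. All 9 theca and stroma markers had a loop, at 2.41 and 2.45 per 1000 loops before hCG and 2.74 and 2.52 after it. Acta2, Col1a1, Col1a2 and Pdgfra were at lost loops and Insl3, Pdgfra and Nr2f2 at gained loops. Over all genes with a loop, 7.94% were at a lost and 9.8% at a gained loop, and with so few markers a list was not tested against these shares. Of 5 leukocyte markers 3 had a loop, Lyz2 at a lost one, while Adgre1 and Csf1r had none. Of 4 oocyte markers 3 had a loop and Gdf9 had none, and of the endothelial markers Pecam1 was at a gained and Cd34 at a lost loop. Among the 7 granulosa markers, Inhba and Esr2 were at both gained and lost loops and Nr5a2 at a gained loop. Loops at a marker do not show that its cell type was present.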
